A study of Mus musculus with 14 samples.

Results

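Broad domains of histone H3 lysine 27 acetylation (H3K27ac) were selected from the E14 mouse retina on their length alone. Of 13463 enriched regions in the deposited list, 354 (2.63%) were 3000 bp or longer, and these held 9.50% of all enriched base pairs. Their length chose them, and pileup, fold enrichment and q-value come from the same ChIP-Seq comparison, so all of these values are given as descriptions, with no test.

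Regulation of mouse retinal development by the LIM homeodomain factor LHX2 was the subject of the series, which has 14 samples from RNA-Seq, ATAC-Seq and ChIP-Seq. The sample used here was chromatin from CD1 mice at embryonic day 14, with the source given as retinal cells and the cell type given as retinal progenitor cells (RPCs). The study's methods describe ChIP on dissected whole retinas, which also hold the neurons already born by that age, and neither a Cre transgene nor an Lhx2 deletion is given for this sample by its title, strain or age, although a treatment text shared by all samples names an Lhx2 conditional knock-out. Chromatin was cross-linked, sheared and precipitated with an antibody to H3K27ac in 2 replicate libraries, and 1 isotype control library was made. Both replicates had been pooled before enriched regions were called, so no value below has a replicate error. Intervals in square brackets are 95% intervals (Wilson for shares, order statistics for medians) and cover counting error over regions only, which share 1 pooled library and are not independent along a chromosome.

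H3K27ac is placed by the acetyltransferases CBP and p300 on nucleosomes that flank active promoters and active enhancers. At most active promoters the mark sits beside the transcription start site (TSS), over the nucleosomes next to the open DNA. Long unbroken stretches of the mark are known from genes that set cell identity, where promoter and nearby enhancers are acetylated together, and genes for transcription factors are common among them.

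Because the domains differed in base composition along their length, stretches of the mouse mm9 genome are shown first. Both stretches that follow are 300-bp windows inside the longest domains, 14.7 kb upstream of the Pax6 TSS and 13.7 kb upstream of the Six3 TSS. Each distance is from the annotated start site nearest the midpoint of the domain. Both genes have more than 1, and another Six3 start site lies nearer to the window. Each is the window of its domain with most copies of TAATTA, the core letters that many homeodomain factors bind, in capitals. The plus strand is printed and TAATTA reads alike on both strands.
Pax6 domain, chr2:105500478-105500777, plus strand: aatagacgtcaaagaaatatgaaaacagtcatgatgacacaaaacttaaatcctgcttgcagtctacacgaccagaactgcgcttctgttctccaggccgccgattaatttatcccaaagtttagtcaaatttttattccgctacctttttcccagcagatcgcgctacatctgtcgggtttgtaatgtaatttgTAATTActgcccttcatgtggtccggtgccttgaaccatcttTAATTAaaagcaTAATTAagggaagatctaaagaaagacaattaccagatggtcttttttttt
Six3 domain, chr17:86006298-86006597, plus strand: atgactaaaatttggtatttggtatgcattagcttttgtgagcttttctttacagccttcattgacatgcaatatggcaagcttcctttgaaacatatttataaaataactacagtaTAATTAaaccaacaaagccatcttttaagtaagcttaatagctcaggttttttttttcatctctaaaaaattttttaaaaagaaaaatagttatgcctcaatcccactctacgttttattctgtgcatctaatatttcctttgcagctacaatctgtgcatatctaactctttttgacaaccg
The Pax6 window held 3 copies at a GC content of 38.3%, and the Six3 window held 1 copy at 30.3%. TAATTA was present in 4.94% [4.37 to 5.59] of 4813 such windows tiled over the 354 domains and in 2.75% of windows tiled over the shorter regions. A match of letters is a description and not a binding site.

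The next 4 stretches run from 250 bases before to 50 bases after a TSS. They show the range of promoter types inside the domains, with GGGCGG, the GC box that Sp family factors bind, or its reverse complement in capitals. Hivep1 (a zinc finger factor) had the highest GC content of the 245 start-site windows examined in the domains, Cp (ceruloplasmin, a copper-carrying ferroxidase) had the lowest, and Pax6 and Sox2 are promoters of progenitor regulators.
Hivep1, chr13:42147140-42147439, plus strand: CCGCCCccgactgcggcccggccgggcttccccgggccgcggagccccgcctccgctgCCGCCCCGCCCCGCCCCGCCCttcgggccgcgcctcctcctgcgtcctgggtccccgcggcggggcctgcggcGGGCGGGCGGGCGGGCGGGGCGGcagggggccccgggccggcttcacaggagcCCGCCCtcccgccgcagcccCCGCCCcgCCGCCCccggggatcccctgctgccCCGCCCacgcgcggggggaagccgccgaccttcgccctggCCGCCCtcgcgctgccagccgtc
Cp, chr3:19857034-19857333, plus strand: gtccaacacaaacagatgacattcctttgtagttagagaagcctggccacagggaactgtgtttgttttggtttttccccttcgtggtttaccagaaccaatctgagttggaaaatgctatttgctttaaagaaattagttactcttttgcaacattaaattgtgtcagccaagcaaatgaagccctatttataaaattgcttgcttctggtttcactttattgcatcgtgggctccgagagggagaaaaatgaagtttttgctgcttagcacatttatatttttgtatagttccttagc
Pax6, chr2:105515098-105515397, plus strand: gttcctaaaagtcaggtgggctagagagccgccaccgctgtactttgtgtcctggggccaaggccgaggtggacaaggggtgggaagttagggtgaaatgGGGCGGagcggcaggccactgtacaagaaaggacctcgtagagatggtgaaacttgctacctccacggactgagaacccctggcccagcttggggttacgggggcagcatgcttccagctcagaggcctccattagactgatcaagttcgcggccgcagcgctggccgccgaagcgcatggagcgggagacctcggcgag
Sox2, chr3:34548808-34549107, plus strand: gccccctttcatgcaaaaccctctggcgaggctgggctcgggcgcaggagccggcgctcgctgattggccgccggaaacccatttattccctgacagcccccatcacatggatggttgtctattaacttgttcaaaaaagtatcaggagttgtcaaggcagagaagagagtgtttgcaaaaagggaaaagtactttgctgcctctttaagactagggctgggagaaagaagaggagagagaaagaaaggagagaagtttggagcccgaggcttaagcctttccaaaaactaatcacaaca
Hivep1 held 15 matches, overlapping ones included, at 87.0% GC, whereas Cp held 0 at 38.0% GC. Pax6 held 1 at 61.7% GC and Sox2 held 0. GGGCGG on either strand was present in 157 of the 245 windows, 64.1% [57.9 to 69.8], against 73.3% of the 8282 start-site windows in shorter regions and 77.5% of the 703 in regions of 2 to 3 kb. TAATTA was found in 3 of the 245 windows (1.22% [0.417 to 3.54]) and in 1.41% of the windows of shorter regions. That interval is too wide to say whether its higher share in the tiled domains also holds at their start sites.

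The median domain was 3683 bp long [3595 to 3818], the shortest 3001 bp and the longest 32865 bp. Most of the domains, 299, were 3 to 5 kb long, a further 49 were 5 to 10 kb and 6 were 10 kb or longer, each class starting at its lower bound and ending just below the upper. The next shorter class, 2 to 3 kb, held 939 regions and serves below as the nearest comparison. On either side of the limit the regions were alike in kind. Just outside were Mtap1b (2994 bp, pileup 16.29), Nbea (2996 bp, pileup 8.98) and Camk2n1 (2999 bp, pileup 19.66). Just inside were Gse1 (3001 bp, pileup 17.02), Eif4e3 (3003 bp, pileup 20.86), Hist1h2bb (3003 bp, pileup 15.67) and Hist2h2aa2 (3007 bp, pileup 18.38).

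The domains were long but did not stand out in mean pileup. Pileup is the number of extended ChIP fragments over a base, scaled to the depth of the control library and averaged over the region. The highest point inside a region was not measured. Its median was 16.07 [15.40 to 16.56] in the 354 domains, with a range of 6.85 to 28.01, and 15.02 [14.92 to 15.13] in the 13109 shorter regions. Regions of 2 to 3 kb had a higher median than the domains, 17.26 [16.90 to 17.69], and the intervals did not overlap. Among the 354 regions with the highest pileup of the whole list 5 were domains, beside the 2.63% that domains make up of all regions. Of the domains, 210 lay above the median of the shorter regions. Fold enrichment, the ChIP signal over the local background estimated from the control, gave the same order, with medians of 4.65 [4.54 to 4.75] in the domains, 4.45 [4.43 to 4.48] in shorter regions and 4.93 [4.84 to 5.05] at 2 to 3 kb. Limits of a 4-fold enrichment and a q-value of 0.001 were met by 282 of 354 domains, 79.7% [75.2 to 83.5], against 64.1% of the whole list and 79.2% at 2 to 3 kb, and since these values belong to the comparison that gave the lengths nothing is read from that share.

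**Figure D1:**
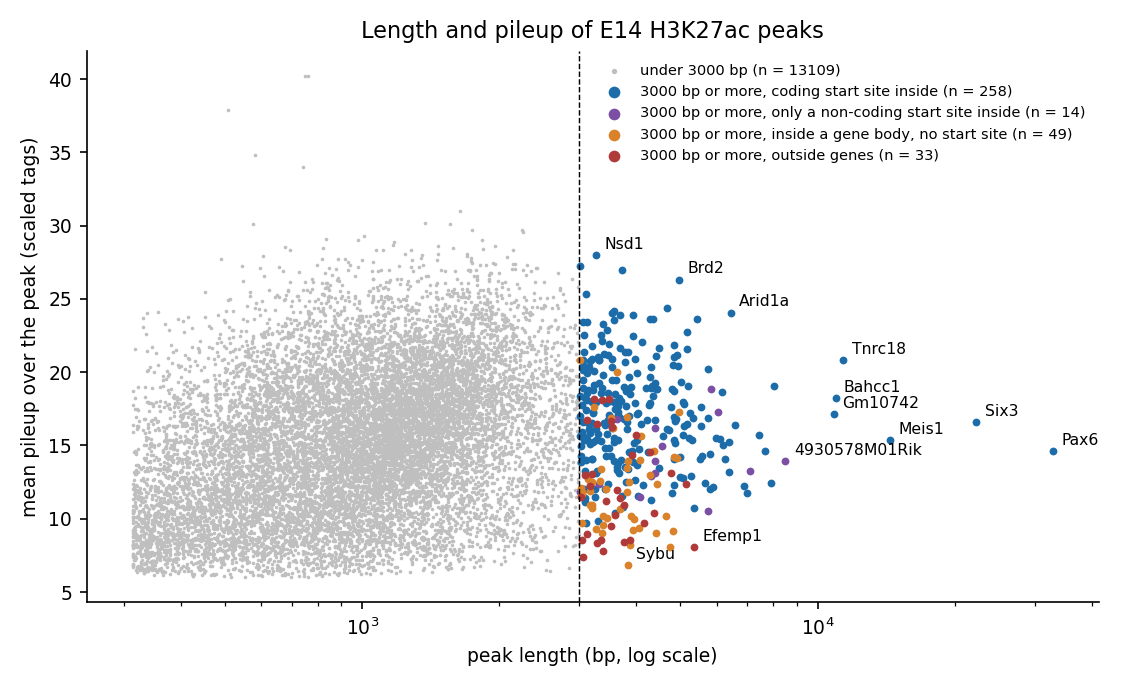
Mean pileup in scaled tags against region length in bp on a log scale, with 1 point for each of the 13463 regions and the 354 domains of 3000 bp or more set apart by colour. The domains run from 3001 to 32865 bp at pileups between 6.85 and 28.01, inside the range of the shorter regions, which reaches 40.22.

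Among the domains themselves, length and pileup were unrelated in rank. Spearman's rank correlation was 0.003 over the 354 domains and 0.35 over the 13109 shorter regions, both as descriptions over regions of the same library. Pileup and GC content were ranked more alike, with a rank correlation of 0.58 in the domains and 0.44 in the shorter regions, and the part of base composition in the pileup was not tested.

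The 5 domains with the highest pileup all held a protein-coding TSS. Nsd1, a histone H3 lysine 36 methyltransferase, had a pileup of 28.01 over 3264 bp, E2f3, a cell-cycle transcription factor, 27.26 over 3015 bp, and Arid1b, a subunit of the BAF chromatin-remodelling complex, 26.99 over 3721 bp. Brd2, a reader of acetylated histones, had 26.31 over 4961 bp and Yy1, a zinc finger factor, 25.33 over 3106 bp. Among these 5, only Brd2 was longer than 3721 bp. The 5 lowest pileups lay away from coding start sites. They were 6.85 in the body of Sybu (3833 bp), 7.42 at a distance of 389 kb from Kcnh7 (3053 bp), 7.79 at 482 kb from Gm17459 (3379 bp), 8.05 in the body of Clybl (4733 bp) and 8.06 at 117 kb from Efemp1 (5355 bp). GC content was 63.9% to 71.2% in the former 5 and 37.9% to 43.1% in the latter 5. Fold enrichment was highest at Slc38a1, an amino acid transporter gene (8.81, 3204 bp), Chd7, a chromatin remodeller gene (8.51, 3341 bp), and Kctd15 (8.45, 3122 bp).

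Next, the 15 longest domains were examined gene by gene. Pax6, the paired-class homeodomain factor needed for eye formation, lay in a domain at chr2:105498978-105531842 that reached 16370 bp upstream and 16495 bp downstream of its TSS, with a pileup of 14.59 and a fold enrichment of 4.44. The start site used throughout is the annotated one nearest the midpoint of the domain, and for Pax6, which has several, that choice sets the near balance of both sides. The domain covered 66.5% of the gene body and also the antisense transcript Pax6os1. Six3, a SINE-class homeodomain factor of the eye field and forebrain, lay in a domain at chr17:86005698-86028044 with 14485 bp upstream and 7862 bp downstream, pileup 16.57 and fold enrichment 4.72. This domain covered 82.9% of Six3 and also its divergent non-coding partner Six3os1. Meis1, a TALE-class homeodomain factor of retinal progenitors, had 9747 bp upstream and 4694 bp downstream at chr11:18907312-18921752, pileup 15.36 and fold enrichment 5.47, over only 8.41% of its long gene body. The pileup of all 3 lay within 2 units of the median of the 354 domains, so these regions stood apart in extent and not in mean pileup.

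Tnrc18 (11391 bp, chr5:143574453-143585843, pileup 20.84) and Bahcc1 (10960 bp, chr11:120091157-120102116, pileup 18.23), which encode related proteins with a BAH domain, followed, and then the predicted gene Gm10742 (10874 bp, chr3:17684415-17695288, pileup 17.13). Of the 6 domains of 10 kb or more, 5 had more base pairs upstream than downstream of the TSS so chosen, and Pax6 was nearly balanced by that choice. For Six3 the order also rests on that choice, since from another annotated start site inside its domain more base pairs lay downstream. The non-coding gene 4930578M01Rik (8502 bp, chr15:98813714-98822215, pileup 13.91) had no protein-coding TSS in its domain. Setd1b, a histone H3 lysine 4 methyltransferase, had 6482 bp upstream and 1537 bp downstream at chr5:123585720-123593738, with a pileup of 19.07. Ccnd1, cyclin D1, which drives progenitors into S phase, had 3518 bp upstream and 4397 bp downstream with a pileup of 12.43.

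Zfp608, a zinc finger gene, had a domain of 7649 bp (pileup 14.63) and Zfp36l1, an RNA-binding factor that promotes mRNA decay, of 7440 bp at chr12:81209801-81217240 (pileup 15.71). The domain over Gm14488 (7103 bp, chr2:30571956-30579058, pileup 13.26) had a non-coding start site only. Rara, the retinoic acid receptor alpha gene, had 7004 bp at chr11:98786236-98793239, a pileup of 11.76, and 0 CpG-rich windows of 23. Zfp219 had 503 bp upstream and 6383 bp downstream at chr14:52628419-52635304 (pileup 12.22). Fgf9, a fibroblast growth factor of the developing retina, had 6588 bp at chr14:58689229-58695816 (pileup 16.37) with 11 CpG-rich windows of 21. Across these 15 domains pileup stayed between 11.76 and 20.84, whereas length varied from 6588 to 32865 bp.

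**Figure D2:**
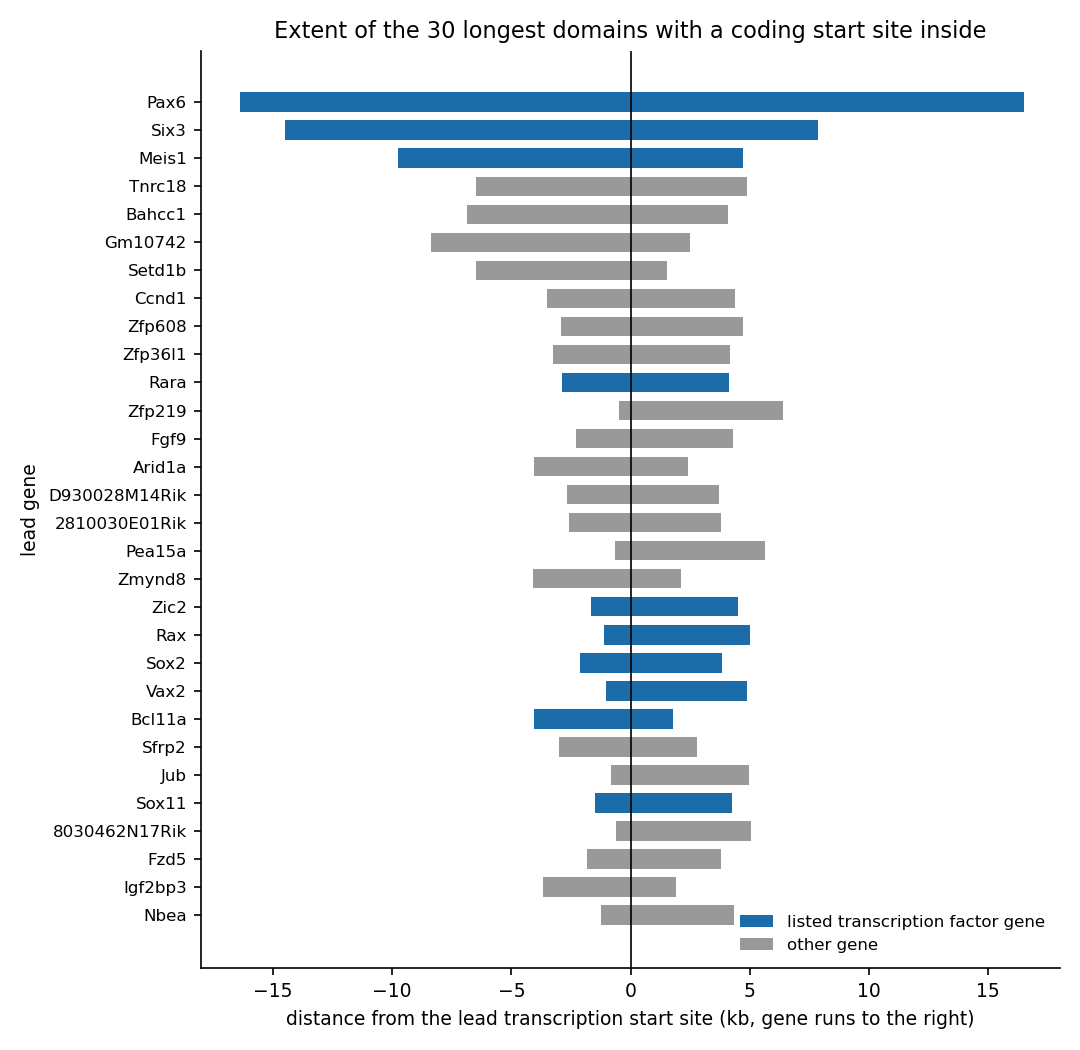
Extent of the 30 longest domains with a protein-coding TSS inside, drawn in kb from the TSS of the lead gene with transcription to the right, 1 bar per domain. Pax6 reaches 16370 bp upstream and 16495 bp downstream, and Zfp219 is the most one-sided toward the gene body, with 503 bp upstream and 6383 bp downstream.

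With respect to genes, domains were placed in 4 classes. A protein-coding TSS lay inside 258 of 354, 72.9% [68.0 to 77.2], only a non-coding TSS inside 14 (3.95%), 49 lay in a gene body with no TSS (13.8%) and 33 outside genes (9.32%). Shorter regions held a protein-coding TSS in 64.9%, but the share depended on length in both directions, with 50.1% under 1 kb, 80.5% at 1 to 2 kb, 77.1% [74.3 to 79.7] at 2 to 3 kb, 70.2% at 3 to 5 kb, 85.7% [73.3 to 92.9] at 5 to 10 kb and 6 of 6 at 10 kb or more. The domains therefore did not hold a coding TSS more often than regions of 2 to 3 kb. Domain base pairs fell 50.1% in introns, 23.9% in exons and 26.1% outside genes, against 42.0%, 30.1% and 27.9% in shorter regions.

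**Figure D3:**
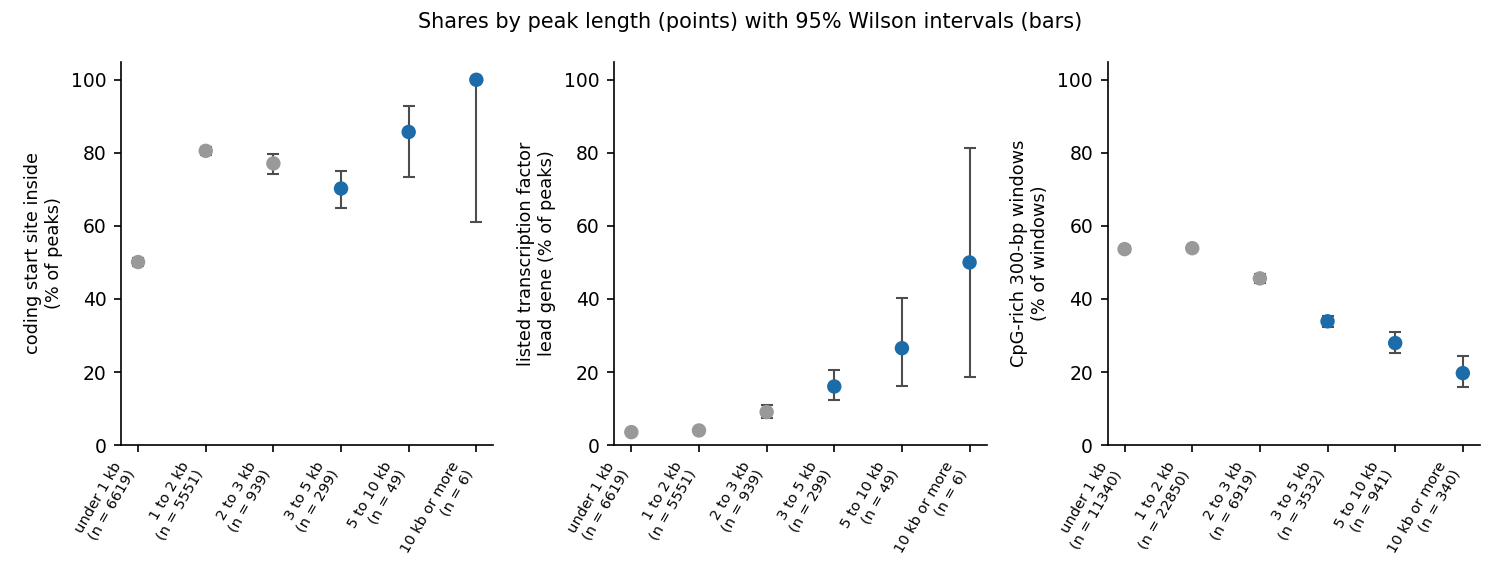
Shares by length class (points, in percent) with 95% Wilson intervals (bars), for regions with a protein-coding TSS, regions with a transcription factor lead gene and CpG-rich 300-bp windows, with the domains in blue. The share with a protein-coding TSS is 50.1% under 1 kb and 80.5% at 1 to 2 kb, and the share with a transcription factor lead gene goes from 3.57% under 1 kb to 26.5% at 5 to 10 kb, whereas CpG-rich windows go from 45.6% at 2 to 3 kb to 19.7% at 10 kb or more.

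In the 258 domains with a protein-coding TSS, the median extent was 1685.5 bp [1563 to 1798] upstream and 2205.5 bp [2048 to 2336] downstream. The downstream part made up a median of 55.2% [52.4 to 59.0] of the domain, beside 57.8% in shorter regions and 53.2% in regions of 2 to 3 kb. Choosing the TSS nearest the midpoint draws this share toward the middle, and with the most upstream coding TSS it was 69.2% in the domains. More base pairs lay downstream in 161 of 258 (62.4% [56.4 to 68.1]), against 60.9% at 2 to 3 kb and 71.1% of shorter regions. In 37 domains at least 2 protein-coding genes started inside (14.3% [10.6 to 19.1]), against 20.3% at 2 to 3 kb and 12.1% of all regions with a coding TSS, and in 31 domains starts lay on both strands.

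A whole protein-coding gene fitted inside 21 of the domains, 5.93%, against 0.564% of shorter regions and 2.13% at 2 to 3 kb. Non-coding genes were not counted here. Longer regions can hold more of a gene by their length, and many of these genes are short. They included Sox2, Sox4 and Sox11 of the Sox family, Zic2, Rax, the immediate-early genes Jund, Junb and Ier2, the Id1 repressor, the RNA-binding factor Pcbp1 and replication-dependent histone genes such as Hist1h3a and Hist1h4a. Pileup in the Sox2 domain was 15.48, in that of Sox11 20.19 and in that of Sox4 21.16.

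For domains without a TSS inside, distances are from the nearest annotated protein-coding start site of the lead gene, or from any of its start sites where that gene is non-coding. The 49 gene-body domains lay a median of 13.5 kb from it, 43 of them downstream. In 5 of these the domain began less than 1000 bp downstream of the annotated TSS, so they run along the start of the gene without including the site itself. These were Nes, the progenitor intermediate filament nestin (1 bp past the TSS, 3825 bp long, pileup 13.94), Notch1 (48 bp, 4087 bp long, pileup 15.65), Rorb, a nuclear receptor of photoreceptor development (140 bp, 4381 bp long, pileup 14.62), Sema3f, an axon guidance ligand (140 bp, 3561 bp long, pileup 16.17), and Zic5 (264 bp, 3619 bp long, pileup 19.99). The 33 domains outside genes lay a median of 96.7 kb from the nearest protein-coding TSS, 17 upstream and 16 downstream of it. Assignment to a gene by distance alone says nothing of which gene such a domain acts on.

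Of the domains with no annotated TSS inside, the 5 longest were near Efemp1 (5355 bp), near Six3 (5130 bp), in Six6 (4952 bp, pileup 17.30), in Gnai2 (4909 bp, pileup 14.17) and in Hmx1 (4842 bp, pileup 14.24). Six3, Six6 and Hmx1 are homeodomain factors of eye development. The Six3 one lay at chr17:85884586-85889715, 123 kb upstream of the nearest annotated Six3 TSS (another start site than the one used for the extent above), with a pileup of 12.34 and a fold enrichment of 4.79, and thus was a second long domain nearest to that gene. The Six6 one began 3852 bp downstream of its TSS. The other domains among the 5 longest assigned by distance only were near Trmt61a (4756 bp, 13.0 kb, pileup 13.14), 4931429L15Rik (4381 bp, 323 kb, pileup 10.40) and Slc2a1, a glucose transporter gene (4289 bp, 34.4 kb, pileup 14.58).

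Pileup separated the domains by position. The median was 16.985 [16.56 to 17.72] with a protein-coding TSS inside and 12.15 [11.50 to 12.95] without. In shorter regions of the same 2 kinds it was 16.67 and 11.1. The intervals of domains and shorter regions overlapped with a coding TSS (16.55 to 16.81 in shorter regions) and did not overlap without (10.96 to 11.25). Regions of 2 to 3 kb with a coding TSS had a higher median than such domains, 18.39 [18.07 to 18.91], and these intervals did not overlap. Domains outside genes had a median of 11.5, those in gene bodies 11.91 and those with only a non-coding TSS 13.585.

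Several genes carried more than 1 long domain. Of 21 such genes, 20 were protein-coding. Msi2, an RNA-binding factor of neural progenitors, had 4, of which the 3080-bp domain over the TSS had a pileup of 18.22 and those elsewhere in its gene body, 3204, 3426 and 3849 bp long, had 10.7, 12.06 and 12.5. Chd7 had 3, with a pileup of 22.56 over the TSS and 16.26 and 12.95 in domains outside genes that lay 159 kb and 168 kb downstream of its nearest annotated TSS, another start site than the one in the first domain. Chd2, another remodeller of the CHD family, had 3, with a pileup of 14.07 in the domain over a TSS and 18.15 and 16.48 in those outside genes, so the domain over the TSS was the lowest there. Gm20388 also had 4, each over the TSS of another gene, since its gene model spans a long interval that includes Gse1 and Tubb3.

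The other 17 genes had 2 long domains each. Meis1 had a further one of 4415 bp in its body with a pileup of 9.0 against 15.36 over the TSS, and Tox (an HMG-box factor) had 9.19 in its body against 17.59. Tbx2, a T-box factor of the dorsal eye, had 14.08 over the TSS and 14.04 in its body (5515 and 4081 bp), and Hmx1 had 16.04 and 14.24. Msi1, the paralogue of Msi2, had 19 and 16.64. Dkk3, a secreted Wnt modulator, had 9.60 and 12.07, neither over a TSS, and Sema3f had 16.17 and 10.20. The remaining pairs belonged to Anxa1 (9.73 and 10.93, both outside genes), Pip5k1b (15.35 over the TSS and 10.55), Gse1 (17.02 and 15.93), Bcor (12.27 over the TSS and 9.34), Zfp710 (19.24 over the TSS and 10.95), Zfp608 (14.63 over the TSS and 8.53), 2810030E01Rik (15.26 over the TSS and 16.96), Tuba1a (14.79 over the TSS and 11.95), Six3 and Sox2ot.

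Domains also lay near other acetylated regions. Another region was found within 20 kb of 195 of 354 domains, 55.1% [49.9 to 60.2], against 36.0% of shorter regions and 40.7% at 2 to 3 kb. The median gap to the nearest other region was 16556 bp for the domains and 31701 bp for shorter regions. No gap in the whole list was under 1253 bp, and 4 times the fragment length used in calling is 1252 bp, the distance within which MACS joins stretches in broad mode. The list does not show such stretches inside a domain. Midn, with 6 other regions within 20 kb, was among the most crowded (5167 bp, pileup 22.75).

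Base composition differed from that of shorter regions. Median GC content was 56.8% [56.0 to 57.4] in the domains, 60.3% in shorter regions and 58.8% at 2 to 3 kb, and it was 51.5% in the 6 longest. The ratio of observed to expected CpG dinucleotides was 0.596 in the domains and 0.718 in shorter regions. In 300-bp windows, CpG-rich ones (GC content of at least 55% and a CpG ratio of at least 0.6) made up 31.7% [30.4 to 33.1] of the 4813 windows in the domains, 45.6% at 2 to 3 kb and 52.4% in shorter regions. CpG-rich DNA was thus a smaller part of a domain, but it was more often split, since 162 domains (45.8%) held at least 2 separate CpG-rich stretches, against 23.0% at 2 to 3 kb and 3.57% of shorter regions, and a longer region has more room for them. The Pax6 domain held 12 CpG-rich windows of 109 in 8 stretches and that of Six3 14 of 74 in 8 stretches.

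Domains with a coding TSS had a median GC content of 58.2% and a CpG ratio of 0.663, those without 50.7% and 0.288. At the other end, 66 domains (18.6%) had no CpG-rich window at all, against 18.2% at 2 to 3 kb and 26.1% of shorter regions, among them Rara (54.7% GC) and Cp (36.8% GC, 3096 bp, pileup 9.73). AACAAT, the core letters that Sox factors bind (either strand), was in 10.8% [9.96 to 11.7] of windows in the domains and in 6.97% in shorter regions, whereas CAGCTG, an E-box bound by basic helix-loop-helix factors that reads alike on both strands, was in 16.1% and 15.7%. TGACAG, the letters bound by MEIS and TGIF factors (either strand), was in 13.9% and 15.5%. The AT-rich letters TAATTA and AACAAT had higher shares and GGGCGG a lower share (31.8% against 46.7%), alongside the lower GC content, and the part of GC content in these shares was not tested.

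**Figure D4:**
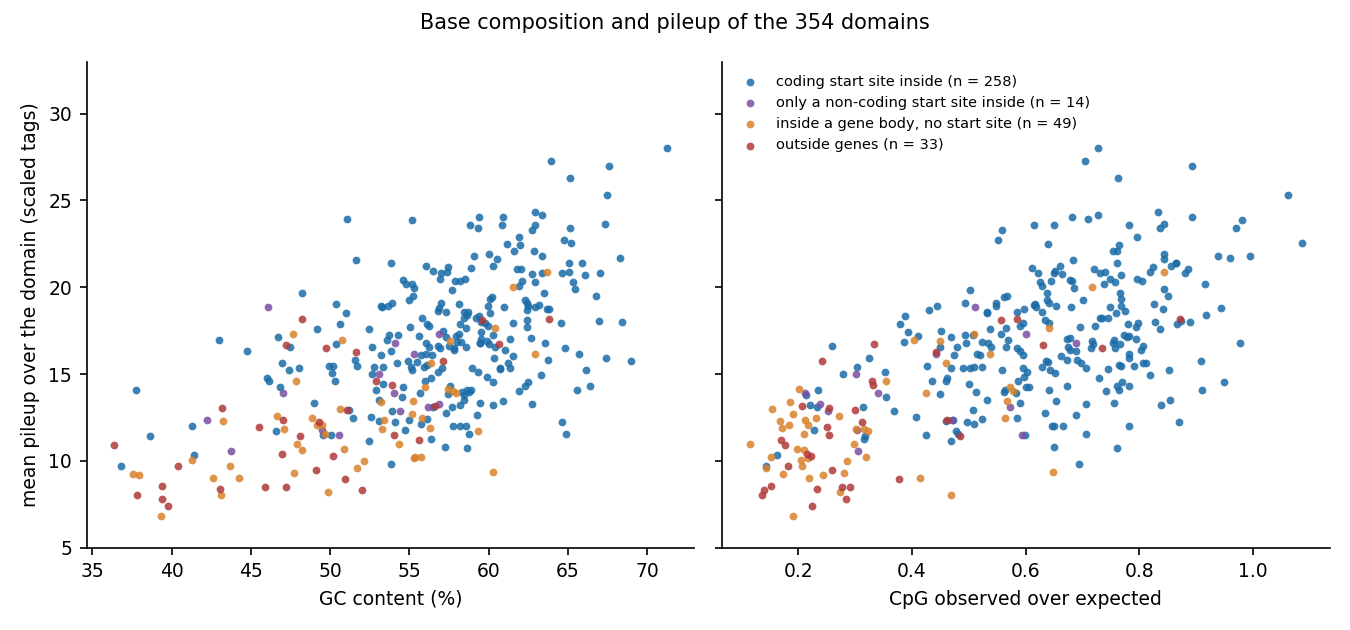
Mean pileup in scaled tags of the 354 domains against GC content in percent and against the ratio of observed to expected CpG, with 1 point per domain coloured by whether a protein-coding TSS lies inside. Domains without one sit lower on both axes, with medians of 50.7% GC and a pileup of 12.15 against 58.2% and 16.985.

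Gene classes were then counted with lists of known factors. Of 22380 annotated protein-coding genes, 368 overlapped a domain or were its nearest gene, which is 1.64%. A listed transcription factor was the lead gene of 64 domains (59 genes), 18.1% [14.4 to 22.4], against 9.05% at 2 to 3 kb and 4.15% of shorter regions. The share was 16.1% at 3 to 5 kb, 26.5% at 5 to 10 kb and 3 of 6 at 10 kb or more. By gene, 61 of 655 listed factors carried a domain (9.31%), compared with 307 of 21729 other protein-coding genes (1.41%). Among genes with their TSS in any region, 56 of 278 listed factors (20.1%) had it in a domain, against 3.08% of all 9597 protein-coding genes. The median length of the region over the TSS was 1807 bp for the listed factors and 1207 bp for all protein-coding genes. Domains led by a factor had a median pileup of 15.55 [14.62 to 16.56], which overlapped the 16.3 [15.36 to 16.77] of the other domains.

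**Figure D5:**
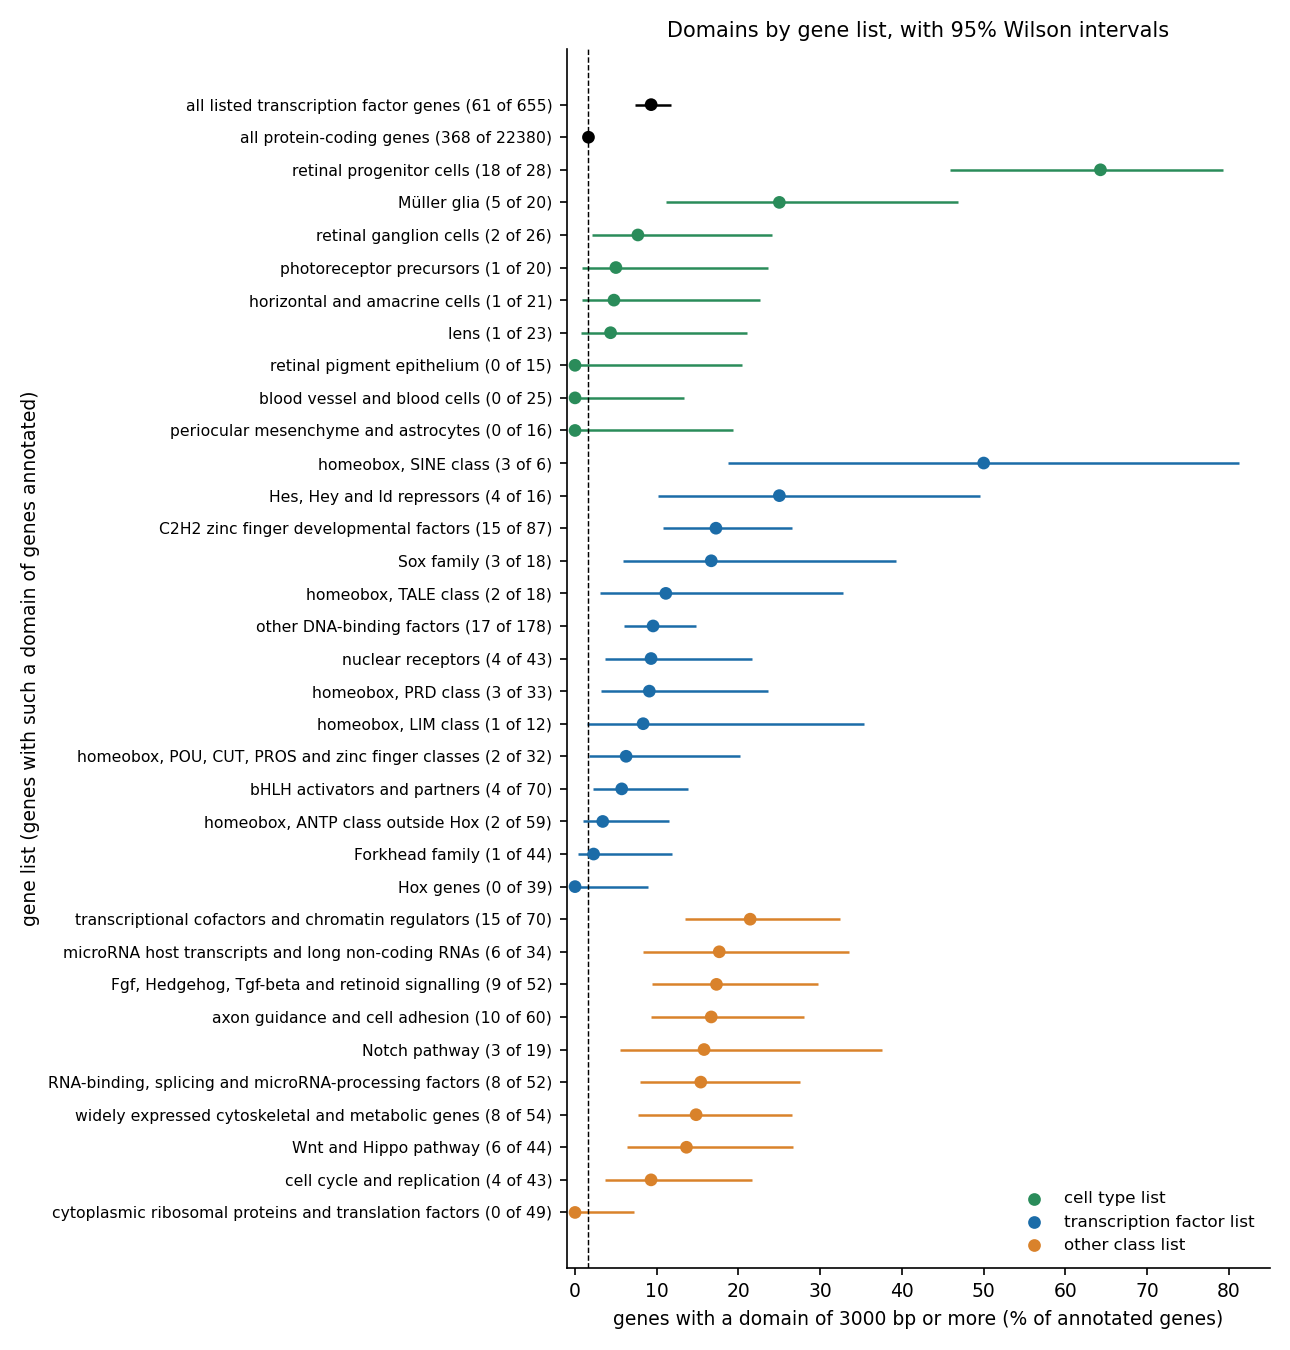
Share of the annotated genes of each list that carry a domain (points, in percent) with 95% Wilson intervals (bars), and the count of genes beside each list name. The list of retinal progenitor genes stands at 64.3%, whereas Hox, ribosomal, pigment epithelium, blood and mesenchyme genes are at 0 and all protein-coding genes at 1.64%.

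Homeodomain factors had the 3 longest domains over listed transcription factor genes, those of Pax6, Six3 and Meis1. Of 6 SINE-class genes, 3 carried a domain, namely Six3, Six6 and Six5 (3157 bp, pileup 15.84). Of 33 PRD-class genes, 3 did, among them Pax6 and Rax (6096 bp, pileup 15.42), which is needed to form the optic vesicle. Rax was covered whole. Only 6 of the 33 had a region of any length, against 11847 of all 22380 protein-coding genes, the other three being Otx1 (2652 bp), Otx2 (2411 bp) and Uncx (1075 bp). Of 18 TALE-class genes 2 carried a domain, Meis1 and Tgif1 (5056 bp, pileup 15.74), and of 12 LIM-class genes only Lhx2, with 3189 bp that began 2205 bp downstream of its TSS and a pileup of 12.50. Of 59 ANTP-class genes outside the Hox clusters, 2 did, Vax2 (5900 bp, pileup 12.14), a factor of the ventral retina, and Hmx1. Of the 32 genes of the POU, CUT, PROS and zinc finger classes, Zeb2 (4440 bp, pileup 18.88) and Onecut2 (3970 bp, pileup 12.64) did. None of 39 Hox genes, which pattern the trunk and hindbrain, had a region of any length, again beside 11847 of 22380.

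In the Sox family 3 of 18 genes had a domain, Sox2 (5974 bp), Sox11 (5750 bp, pileup 20.19) and Sox4 (3460 bp), while Sox9 had 5 regions of at most 692 bp. Of 16 Hes, Hey and Id genes, 4 did, Id3 (5273 bp, pileup 12.93), Hes1 (4251 bp, pileup 14.54), Id1 (3640 bp, pileup 15.40) and Hes6 (3194 bp, pileup 16.56). Most of this list represses neuronal differentiation, whereas Hes6 is known to promote it. Hes5, a close relative of Hes1, had at most 2421 bp (pileup 16.23). Among 70 basic helix-loop-helix activators and partners the 4 with a domain were all of the Myc network, Mycn (4839 bp, pileup 15.40), Mycl1 (4667 bp), Mxi1 (3599 bp) and Myc (3416 bp, pileup 12.03). The proneural genes Atoh7 and Neurog2 had regions of at most 1088 and 2275 bp.

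Of 87 developmental C2H2 zinc finger genes 15 carried a domain (17.2% [10.7 to 26.5]). Members of the Zic family were among them, with 6167 bp over Zic2 (pileup 18.65), 4574 bp shared by the divergent Zic1 and Zic4 (pileup 15.63) and the Zic5 domain above. Bcl11a (5817 bp, pileup 12.02), Klf3 (4390 bp, pileup 19.26) and Casz1 (3961 bp, in the gene body, pileup 10.01) followed. Nuclear receptors had 4 of 43, Rara, Nr2e1 (5074 bp, pileup 12.77), a factor that keeps progenitors dividing, Rorb and Nr2f2 (3049 bp, pileup 15.62). Forkhead genes had 1 of 44, Foxo3 (3614 bp, pileup 19.50). Of 178 other DNA-binding factors 17 had a domain, the longest being Tbx2 (5515 bp), Jund (5435 bp, pileup 23.61), Tox (4806 bp), Junb (4483 bp, pileup 13.43), Srf (4419 bp, pileup 21.13) and Smad7 (4294 bp, pileup 19.68).

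Cofactors and chromatin regulators, which act on promoters of many cell types, had domains at 15 of 70 genes (21.4% [13.4 to 32.4]). The longest were Arid1a, a BAF subunit (6457 bp, pileup 24.07), Ldb1, the partner of LIM homeodomain factors (5292 bp, pileup 15.39), Brd2 (4961 bp, pileup 26.31) and Lmo4, a LIM-only protein (4258 bp, pileup 17.78). Chd4 (3981 bp, pileup 17.88) and the corepressor Tle3 (3938 bp, pileup 22.46) followed.

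Of the signalling lists, the Fgf, Hedgehog, Tgf-beta and retinoid list had domains at 9 of 52 genes (17.3% [9.38 to 29.7]). Ligands included Fgf9 and Fgf15 (4842 bp, pileup 12.28), and feedback inhibitors of the Fgf pathway included Dusp4 (4876 bp, pileup 16.80) and Spry2 (4087 bp, pileup 16.49), so ligands and inhibitors of this pathway both carried domains. Crabp2, which binds retinoic acid in the cell, had 4306 bp (pileup 11.27). The count includes the receptor Fgfr2 only through a domain at the Ctbp2 promoter (4477 bp, pileup 21.63), where a long annotated Fgfr2 model begins, and without it 8 of the 52 remain. In the Wnt and Hippo list 6 of 44 genes did, with the secreted inhibitor Sfrp2 (5816 bp, pileup 14.41), the receptor Fzd5 (5588 bp, pileup 14.30), the kinase Gsk3b (3798 bp, pileup 17.72) and the Hippo regulator Amotl2 (3529 bp, pileup 19.48), followed by Dkk3 and the coreceptor Lrp5 (3344 bp, pileup 13.37). In the Notch list 3 of 19 did, the receptor Notch1, the glycosyltransferase Mfng that modifies it (3643 bp, pileup 13.82) and the coactivator Maml3 (3504 bp, pileup 16.91).

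Cell-cycle and replication genes had domains at 4 of 43, which were the regulators Ccnd1, Btg2 (3908 bp, pileup 14.38), Ccnd3 (3575 bp, pileup 13.97) and Cdk6 (3523 bp, pileup 14.31), and Btg2 restrains rather than drives division. The axon guidance and adhesion list had 10 of 60, led by the ephrin Efna5 (5015 bp, pileup 19.31), Sema6a (4988 bp, pileup 14.24) and the cadherin Cdh11 (4392 bp, pileup 16.77). RNA-binding and splicing factors had 8 of 52, among them all 3 Igf2bp genes, Igf2bp3 (5556 bp, pileup 17.60), Igf2bp1 (4822 bp, pileup 20.47) and Igf2bp2 (3482 bp, pileup 21.94). Widely expressed cytoskeletal and metabolic genes had 8 of 54 (14.8% [7.70 to 26.6]), led by Marcks (4902 bp, pileup 21.20) and Ptma (4670 bp, pileup 24.36), a share inside the range of the developmental lists. All 49 ribosomal and translation genes had a region, with a median of 1648 bp over the TSS, and 0 had a domain.

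Cell-type lists were used to check the sample's label against the domains. Of 28 retinal progenitor genes 18 carried a domain, 64.3% [45.8 to 79.3], and the region over their TSS had a median of 4251 bp against 1207 bp for all protein-coding genes. Several of these genes are also among the transcription factors above, and the list was chosen with these data known, so it is not independent evidence. The other 10 included Foxn4 (2526 bp at most), Hes5, Vim (2370 bp), Neurog2, Meis2 (2004 bp), the proliferation marker Mki67 (2003 bp), Atoh7, Sox9 and Olig2, which had no region.

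For retinal ganglion cells 2 of 26 genes had a domain, Tubb3 (4022 bp, pileup 13.68) and Klf7 (3668 bp, pileup 16.96), and 18 had a region of some length, the defining factor Pou4f2 with at most 2189 bp and Isl1 with 1154 bp. Horizontal and amacrine genes had 1 of 21 (Onecut2), and 10 had a region of some length. Photoreceptor genes had 1 of 20 (Rorb), and 5 had a region of some length, among them Otx2 (2411 bp) and Thrb (2006 bp), with none at Crx or Nrl. Müller glia genes had 5 of 20, Id3, Hes1, Id1, Dkk3 and Nfib (3025 bp), the genes Hes1 and Dkk3 being shared with the progenitor list. A region of some length was found at 13, among them Hes5 (2421 bp), Vim (2370 bp) and Glul (1826 bp), whereas Rlbp1 and Aqp4 had none. Against the 1.64% of all protein-coding genes with a domain, a count of 0 in lists as short as the next ones is not a result about those cells. Pigment epithelium had 0 of 15, with regions at Mitf (1177 bp) and Trpm1 (737 bp) only. Blood vessel and blood genes had 0 of 25, with regions at 4 genes of up to 1728 bp (Egfl7), and mesenchyme and astrocyte genes 0 of 16, with regions at 3. Regions of any length are to be read beside those of 11847 of 22380 protein-coding genes. Lens genes had 1 of 23, Cryba4, which a domain of 3432 bp at 11.3 kb had as its nearest gene, while none of the other listed crystallin genes had a region. In bulk chromatin, fewer cells with the mark and less of it per cell cannot be told apart.

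Some domains overlapped non-coding genes. Long intergenic RNA genes overlapped 45 domains (12.7%), against 7.03% of regions of 2 to 3 kb and 5.29% of shorter regions, and a longer region has more room for a gene. MicroRNA genes overlapped 3 domains (0.847%), against 1.38% and 0.534%. Of 34 listed host transcripts and long non-coding RNAs, 6 carried a domain. Beside Six3os1, Sox2ot and Vax2os1 at their homeobox and Sox neighbours, these were Malat1 (5828 bp, pileup 18.87), Miat (4401 bp, pileup 16.18) and Rmst (3306 bp, pileup 12.35), a transcript of neural progenitors. Among the 5 longest domains without a protein-coding TSS, 4930578M01Rik and Gm14488 were followed by 2810410L24Rik (6047 bp, pileup 17.29), Malat1 and a domain in Pip5k1b (5740 bp, pileup 10.55), and all 5 held a non-coding TSS.

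The 3 microRNA genes were Mir124a-1, of the neuronal miR-124 family, in a domain at chr14:65205388-65209775 over A930011O12Rik (4388 bp, pileup 13.1), AL928593.1 in the Gm14488 domain, and Mir1894 in the Ppp1r10 domain at chr17:36052949-36056803 (3855 bp, pileup 19.68). RefSeq (GRCm38.p6) gave mature sequences for Mir1894, shown with the seed, bases 2 to 8, in capitals.
mmu-miR-1894-5p: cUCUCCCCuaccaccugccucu
mmu-miR-1894-3p: gCAAGGGAgagggugaagggag
These arms have different seeds. The peak list measures acetylation over the gene and not the microRNA.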

How the data were processed

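Broad H3K27ac regions of the E14 ChIP-Seq sample were read from the single deposited list. Per the file headers, the authors aligned reads to mm9 and called regions with MACS 2.1.0.20140616 in broad mode (broad cutoff 0.1) on 1 pooled ChIP alignment against the control, and Bowtie2 is named in the submitters' processing notes. The headers give 159237447 ChIP tags (113543038 kept at 1 tag per position) and 27735759 control tags (9210563 kept), a tag size of 150 bp and a fragment length of 313 bp. The deposited pileup is a coverage signal scaled to the smaller library, the deposited fold enrichment is a ratio to local background, and the deposited −log10 p-value and −log10 q-value are MACS significance values, all averaged over the region. Deep ChIP against a control with 12.3 times fewer kept tags limits the precision of the local background.

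Regions of 3000 bp or more were assigned to GENCODE vM1 genes (NCBIM37, which is mm9) by overlap of the gene body, otherwise by the nearest protein-coding TSS. The lead gene was the protein-coding gene with the TSS inside nearest the midpoint, then the protein-coding gene with the largest overlap, then any gene, then the nearest protein-coding TSS. Named with values were the 15 longest domains, the 5 highest and 5 lowest pileups, the 3 highest fold enrichments, genes with 2 or more domains, the 5 longest without a TSS and the 5 longest assigned by distance, domains with a microRNA gene, 4 regions on either side of the limit, and up to 6 members of each gene list. The named exceptions, such as domains just past a TSS, those over whole genes, Igf2bp2, Cp and list genes without a domain, were chosen after their values were seen. The members and the gene lists were chosen with earlier results of these data known. Base composition and motifs were counted in 300-bp windows tiled over each region. Sequence from chromosome 18 is not printed and its start-site windows were not used here. Shares have Wilson intervals and medians order-statistic intervals (Python 3.11.15, numpy 2.4.6, pandas 2.3.3, scipy 1.17.1, matplotlib 3.10.9), which were tested on simulated data. Since the replicates had been pooled before calling, no test was made. Alternatives changed the length limit, the calling limits, the joining distance, the TSS used and the overlap required. No column of per-sample values was left aside. Some genes that these rules select are not reported here.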

Additional observations from a re-analysis of the deposited data

How the results depend on the processing

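Of 47 alternatives, 19 moved a value out of its interval or, for the number of domains, which has no interval, by over 1.5 times, and 28 did not. Of these 28, 7 were the joining within 1000 bp, which could change nothing, since 0 regions were that close. With other length limits the number of domains was 650 at 2500 bp, 131 at 4000 bp and 55 at 5000 bp. The share over a listed transcription factor gene, 18.4% at 3000 bp, was 25.2% at 4000 bp and 29.1% at 5000 bp. At 5000 bp the share with a protein-coding TSS was 87.3% and the median downstream share 49.2%. Median GC content was 57.5% at 2500 bp, 55.8% at 4000 bp and 54.9% at 5000 bp. Among regions with at least 4-fold enrichment and a q-value of at most 0.001 the number of domains was 282, the TSS share was 80.5%, the median pileup 16.8 and the median fold enrichment 4.88. With the most upstream coding TSS in place of the lead TSS, the downstream share was 69.2%. Joining within 5000 bp, chosen after seeing the data, gave 843 domains, a transcription factor share of 12.5%, a median pileup of 15.01, a fold enrichment of 4.51 and a downstream share of 46.9%, with GC content not computed. The causes of these moves were not tested.

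No paired analysis was possible because the ChIP replicates were pooled before calling. With a single list, the spread between replicates is unknown, and the caller's own joining inside a domain, the depth and the broad cutoff, on which a length depends, were not varied here.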

Other observations

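Long domains were spread over the genome. Their share of the regions on a chromosome ran from 1.31% on the X chromosome and 1.42% on chromosome 1 to 4.21% on chromosome 19 and 4.65% on chromosome 18, and 0 of the 3 regions on the Y chromosome reached 3000 bp. Chromosome 11 had the most domains in number, 32 of 1088 regions (2.94%), and these include Meis1, Bahcc1, Rara, Msi2, Tbx2, Bcl11a and Igf2bp1.

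Some domains lay over replication-dependent histone genes, which make the histones that package new DNA in dividing cells. They were named after their values were seen, and no list of such genes was counted. The Hist1h3a domain (3426 bp) also covered Hist1h4a, that of Hist1h2ag (3115 bp) covered Hist1h2bj and Hist1h4i, and Hist2h2aa2 and Hist1h2bb had domains of 3007 and 3003 bp. These genes sit in clusters of near-identical copies, and the study's methods state that ChIP-Seq reads mapping to more than 1 place were not used for calling, so reads shared by copies are not in these values.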
